A study of Mus musculus with 10 samples.

Results

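The genes of endocannabinoid signalling were examined in the cerebellum of *Dscam* mutant mice and their WT littermates at postnatal day 21 (P21). They are 7 of the 53447 genes listed in each library, and they were chosen by symbol in the GENCODE M21 annotation: the CB1 receptor gene *Cnr1*, the synthesis genes *Dagla*, *Daglb* and *Napepld*, and the breakdown genes *Mgll*, *Abhd6* and *Faah*. Each symbol matched 1 gene, and all 7 genes passed the filter on low values. None of the 7 passed the test for a difference between the genotypes, and neither did any other of the 17168 genes tested. The values of the 5 WT and 5 mutant mice overlapped for each of the 7. Over all genes tested, the values did not overlap in 1.22%.

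Endocannabinoids are lipids that carry a signal backwards across a synapse, from the postsynaptic cell to the presynaptic terminal. In the cerebellar cortex, Purkinje cells that are depolarised or whose metabotropic glutamate receptor mGluR1 is active release 2-arachidonoylglycerol (2-AG), which binds CB1 on the terminals of parallel fibres, climbing fibres and molecular layer interneurons and reduces transmitter release there. The amount of 2-AG and of the other main endocannabinoid, anandamide, is set by the enzymes that make them on demand and by the hydrolases that remove them.

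Both groups are labelled BALB/c, the study having crossed the mutant line to BALB/cCrSlc mice, and every mouse was taken at P21. The control group held 5 littermates without the mutation (labelled Control, here WT 1 to 5), and the mutant group held 5 mice homozygous for *Dscam* del17 (labelled DscamKO, here mutant 1 to 5), a spontaneous loss-of-function allele with a deletion inside exon 17 that all cells of the mouse carry. RNA of the whole cerebellum was sequenced, and each mouse gave 1 library. The study used males and females, without a sex in the labels. The question of the comparison was which transcripts differ in the cerebellum when DSCAM, a cell adhesion molecule of synapse formation, is lost.

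The deposited values are TPM, a measure of transcript abundance that is scaled per library and per transcript length, so that levels of different genes can be set side by side. Since read numbers are lost in TPM, depth is unknown and the precision of each value is known only from the spread between mice. WT 5 stood apart from the other libraries. It had 15623 genes at 0.5 TPM or more, against 17101 to 17763 in the other 9 libraries, while the mRNAs of its mitochondrial genome came to 15206 TPM in total, compared with 23124 TPM in WT 3, the next lowest library, and up to 44973 TPM elsewhere. The listed TPM did not share 1 total. They summed to 684771 in WT 5 and 757307 in WT 3, against 775148 to 838532 in the remaining libraries. Of the 8342 protein-coding genes averaging 10 TPM or more, 214 were over 3-fold below the next lowest library in WT 5, against 1 to 3 genes in each other library. Values that move most without WT 5 are also given without it.

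*Dscam*, the mutated gene, was measured at 8.04, 8.43, 6.79, 9.05 and 6.29 TPM in WT 1 to 5 and at 5.11, 5.42, 4.53, 3.73 and 3.05 TPM in mutant 1 to 5. All 5 mutant values lay below all 5 WT values (p = 0.0079 in a two-sided exact permutation test, which is the lowest p possible with 5 against 5 mice). Groups that do not overlap, with the mutant lower, were found for 0.798% of all genes tested. The means were 7.72 ± 1.15 TPM in WT mice and 4.37 ± 0.979 TPM in mutant mice (SD, n = 5 each), a log2 fold change of -0.82 (standard error 0.23, adjusted p = 0.779 in limma). TPM is measured over the whole gene on chromosome 16, so a deletion inside 1 exon need not lower it.

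Markers of cerebellar cells were present in both groups. The summed TPM of 8 Purkinje cell markers was 3082 to 3676 in WT and 3001 to 3669 in the mutant, and that of 8 granule cell markers was 2832 to 3558 and 2797 to 3075. The 8 molecular layer interneuron markers summed to 569 to 635 TPM in WT mice and 609 to 703 TPM in mutant mice, and the 8 Bergmann glia and astrocyte markers to 1130 to 1512 TPM and 1254 to 1362 TPM. The 8 markers of myelinating oligodendrocytes summed to 1888 to 2977 TPM in WT mice and 2885 to 3461 TPM in mutant mice. The lowest WT sum was that of WT 5. All 8 had a log2 fold change above 0, against 56% of all genes. Their median was 0.44, and 0.18 without WT 5, against 0.048 and -0.037 for all genes. At an unadjusted p under 0.05 in limma, 3 of the 8 were higher, against 2.29% of all genes, and 0 passed the adjusted threshold. Of 7 genes listed as markers of brainstem and midbrain neurons, 3 were under 0.5 TPM in all 10 libraries, *Slc6a4*, *Hoxb5* and *Chat*. The 7 together summed to 3 to 11 TPM in WT mice and 8 to 20 TPM in mutant mice. Whether cerebellar cells also express genes of this list was not examined. Of the 7, the 4 that were tested all had a log2 fold change above 0 (median 1.29, and 1.25 without WT 5), against 56% of all genes. In limma, 3 of them were higher at an unadjusted p under 0.05, against 2.29% of all genes, and 0 passed the adjusted threshold. *Dbh*, 1 of the 4, had at most 0.458 TPM in WT mice and 0.685 to 1.45 TPM in mutant mice. It passed the filter on low values through the mutant mice alone, so the filter partly set these counts and this median. The other lists showed 89 to 98 TPM in WT mice and 89 to 115 TPM in mutant mice for 8 microglia markers, 156 to 227 TPM and 154 to 185 TPM for 8 endothelium and pericyte markers, and 1802 to 3417 TPM and 1941 to 3421 TPM for 6 choroid plexus markers. The part of these differences in the results on the endocannabinoid genes was not tested. In bulk tissue, fewer cells of a type and less RNA per cell cannot be told apart.

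Across the 17168 genes tested, limma found 0 genes past the adjusted p threshold of 0.05 (0% of genes). At an unadjusted p under 0.05 there were 953 genes (5.55%), of which 394 were higher in the mutant (2.29%) and 559 lower (3.26%). With another scaling, by the median of ratios, 603 were higher and 544 lower, and the number at an unadjusted p under 0.05 was 1551 without WT 1 and 1607 without WT 2. Of the 7 endocannabinoid genes, 0 passed either threshold. The 5 WT and 5 mutant values did not overlap in 209 genes (1.22%), with 72 higher (0.419%) and 137 lower (0.798%) in the mutant, and the 7 endocannabinoid genes were not among them. A log2 fold change above 0, meaning a higher level in the mutant, was measured for 5 of the 7 genes, against 56% of all genes tested. The median of the 7 was 0.21 and that of all genes 0.048. Without WT 5 these medians were 0.12 and -0.037, without WT 1 they were 0.32 and 0.10, and without WT 3 and WT 5 they were 0.028 and -0.093. The plot of TPM by mouse shows the overlap of the genotypes for each gene.

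**Figure D1:**
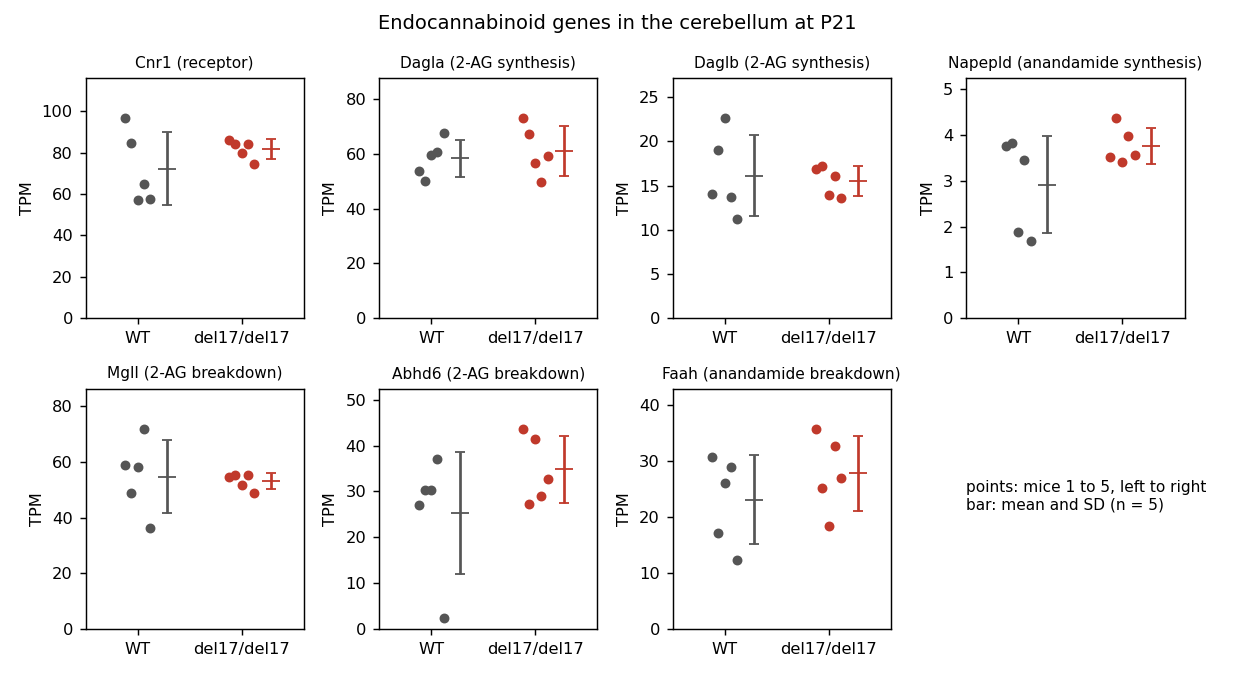
TPM of the 7 endocannabinoid genes (vertical axis, from 0) in WT and del17/del17 cerebella, where each point is 1 mouse and the bar beside the points gives the mean and SD (n = 5). The 2 groups of points overlap in every panel, and the lowest WT point of *Abhd6*, at 2.48 TPM, is WT 5.

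*Cnr1* encodes CB1, the receptor for both lipids and among the most abundant G protein-coupled receptors of the brain. It had the highest mean level of the 7 genes, at 77.0 TPM over the 10 libraries. It spans 33924593 to 33948831 on the plus strand of chromosome 4 in GRCm38, the build of all gene positions here. Its level was 96.6, 84.8, 57.2, 65.1 and 57.5 TPM in WT 1 to 5 and 86.4, 84.1, 79.9, 84.1 and 74.7 TPM in mutant 1 to 5. WT 1 was above all mutant mice and WT 3, WT 4 and WT 5 were below all of them, so the 5 mutant values fell inside the WT range. The means were 72.3 ± 17.7 TPM in WT mice and 81.8 ± 4.62 TPM in mutant mice (SD, n = 5 each). The log2 fold change of 0.21 had a standard error of 0.15 (95% interval -0.12 to 0.54, adjusted p = 0.779 in limma), and the exact two-sided permutation test gave p = 0.214. The interval spans 0.922-fold to 1.45-fold. The value was 0.14 without WT 5 and 0.011 without WT 3 and WT 5, and was -0.015 when mitochondrial mRNA was a covariate. WT 3 and WT 5 had the least mitochondrial mRNA and also the lowest levels of *Cnr1*, 57.2 and 57.5 TPM. Leaving them out therefore had to lower the difference.

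The sequence just before a start of *Cnr1* is shown because this gene had the highest level, and that of *Napepld*, the lowest of the 7, is shown beside it. Each is the 250 bases before a transcription start in RefSeq (GRCm38.p6), read 5′ to 3′ on the strand of the gene. The window of *Cnr1* is chr4:33924014-33924263 on the plus strand, the most upstream of the starts listed for it, and that of *Napepld* is chr5:21701623-21701872 on the minus strand. Capitals mark GGGCGG, the core of the GC box, on either strand.
Cnr1: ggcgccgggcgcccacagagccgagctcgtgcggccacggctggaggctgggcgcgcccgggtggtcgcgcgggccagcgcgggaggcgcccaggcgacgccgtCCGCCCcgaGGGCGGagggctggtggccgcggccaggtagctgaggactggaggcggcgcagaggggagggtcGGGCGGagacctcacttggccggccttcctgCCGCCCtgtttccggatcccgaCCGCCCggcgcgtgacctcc
Napepld: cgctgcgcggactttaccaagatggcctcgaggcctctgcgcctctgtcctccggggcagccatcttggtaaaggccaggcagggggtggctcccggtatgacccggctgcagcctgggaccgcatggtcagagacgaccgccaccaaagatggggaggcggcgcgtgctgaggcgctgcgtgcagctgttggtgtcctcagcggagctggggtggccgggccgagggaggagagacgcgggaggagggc
The *Cnr1* window had a GC content of 79.2%, 36 CpG dinucleotides and 5 copies of GGGCGG counted on both strands. The windows of the other starts of *Cnr1*, beginning at 33924394 and 33926130, had a GC content of 68.8% and 49.2%, 28 and 5 CpG dinucleotides and no GGGCGG. The *Napepld* window had a GC content of 69.6%, 21 CpG dinucleotides and no GGGCGG. Over all 32851 windows of this length in the table, the median GC content was 52.4%, with 34.8% to 73.6% between the 5th and 95th percentile, and the median count of CpG dinucleotides was 6, with 0 to 31. GGGCGG was in 32.7% of all windows. The other motifs searched on both strands were CCAAT, in 33.8% of all windows, TATAA, in 22.8%, CACGTG, in 6.02%, and TGACGTCA, in 1.55%. Windows were found for 6 of the 7 genes, and no window of these 6 held TATAA or TGACGTCA.

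2-AG is made from diacylglycerol by 2 lipases, *Dagla* and *Daglb*. *Dagla* encodes diacylglycerol lipase alpha, which sits in the dendrites of Purkinje cells and supplies the 2-AG of retrograde signalling. Its level was 53.6, 49.96, 59.7, 60.8 and 67.4 TPM in WT 1 to 5 and 72.9, 67.1, 56.6, 49.8 and 59.4 TPM in mutant 1 to 5. The highest value was that of mutant 1 and the lowest that of mutant 4, with the WT mice between them. *Dagla* was the only one of the 7 genes whose highest WT value was in WT 5. The means were 58.3 ± 6.76 TPM in WT mice and 61.1 ± 9.06 TPM in mutant mice (SD, n = 5 each), with a log2 fold change of 0.064 (standard error 0.13, 95% interval -0.21 to 0.34, adjusted p = 0.910 in limma, exact permutation p = 0.627). It was 0.12 without WT 5. It spans 10245265 to 10304877 on chromosome 19 (minus strand).

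*Daglb* encodes the related diacylglycerol lipase beta, which has a smaller part in synaptic 2-AG supply. It was measured at 14.1, 19.0, 22.6, 13.7 and 11.2 TPM in WT 1 to 5 and at 16.8, 17.2, 14.0, 16.1 and 13.5 TPM in mutant 1 to 5. WT 2 and WT 3 were above and WT 5 below all mutant mice. The means of 16.1 ± 4.61 TPM in WT mice and 15.5 ± 1.68 TPM in mutant mice (SD, n = 5 each) gave a log2 fold change of -0.013 (95% interval -0.45 to 0.42, adjusted p = 0.987 in limma, exact permutation p = 0.968), and one of -0.13 without WT 5. The gene spans 143464584 to 143505942 on chromosome 5 (plus strand) and shares exonic bases with *Rac1*, a small GTPase gene on the opposite strand. *Rac1* had 91.3 TPM in WT mice and 100.1 TPM in mutant mice on average. The libraries were made with a directional kit, but the strand setting of the TPM computation is not given in the sources used here, so reads of *Daglb* and *Rac1* in the shared bases may not have been told apart.

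*Dagla* was higher than *Daglb* in all 10 libraries. It took 78.3% ± 5.83 of the summed TPM of the 2 lipases in WT and 79.6% ± 2.39 in the mutant (SD, n = 5 each). The ratio of *Dagla* to *Daglb* was 3.91 ± 1.42 in WT and 3.95 ± 0.521 in the mutant, with a range of 2.62 to 6.03 in WT that enclosed the range of 3.09 to 4.38 in the mutant. A ratio within a library does not depend on how the library was scaled. The log2 difference between the genotypes was 0.077 (exact permutation test, two-sided, p = 0.746, and 0.754 after Benjamini-Hochberg adjustment over the 4 ratios compared), and it was 0.25 without WT 5.

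*Napepld* encodes the N-acylphosphatidylethanolamine phospholipase D that releases anandamide and related ethanolamides from membrane lipids. It was the lowest of the 7 genes, with a mean of 3.34 TPM over the 10 libraries, and spans 21662901 to 21701396 on chromosome 5 (minus strand). Its level was 3.76, 3.82, 1.88, 3.46 and 1.69 TPM in WT 1 to 5 and 3.51, 4.37, 3.42, 3.97 and 3.56 TPM in mutant 1 to 5. WT 3 and WT 5 were below all mutant mice, and the other 3 WT mice were within the mutant range. The means were 2.92 ± 1.05 TPM in WT mice and 3.77 ± 0.397 TPM in mutant mice (SD, n = 5 each). The log2 fold change of 0.43 had a standard error of 0.31 (95% interval -0.24 to 1.10, adjusted p = 0.780 in limma, exact permutation p = 0.183). It was 0.26 without WT 5 and 0.028 without WT 3 and WT 5. The 0.1 TPM added before taking logarithms draws the fold change of so low a gene towards 0, and with 0.01 TPM added it was 0.45.

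2-AG is broken down mainly by *Mgll*, which encodes monoacylglycerol lipase, the enzyme of presynaptic terminals and glia that ends most 2-AG signals. Its level was 58.8, 48.9, 58.0, 71.8 and 36.3 TPM in WT 1 to 5 and 54.4, 55.2, 51.7, 55.3 and 48.7 TPM in mutant 1 to 5. The mutant mice lay close together, while WT 4 was the highest and WT 5 the lowest of the 10 mice. The means of 54.7 ± 13.2 TPM in WT mice and 53.1 ± 2.84 TPM in mutant mice (SD, n = 5 each) gave a log2 fold change of -0.011 (standard error 0.16, 95% interval -0.36 to 0.34, adjusted p = 0.988 in limma, exact permutation p = 0.952), and one of -0.15 without WT 5. *Mgll* spans 88724412 to 88828360 on chromosome 6 (plus strand). *Gm44005*, a transcript annotated within its span on the same strand, had 0.776 TPM on average and shares no exonic bases with it.

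*Abhd6* encodes a membrane hydrolase of the postsynaptic side that removes 2-AG near the place where it is made. It spans 8002902 to 8056763 on chromosome 14 (plus strand). Its level was 27.0, 30.3, 30.2, 37.0 and 2.48 TPM in WT 1 to 5 and 43.6, 27.4, 41.5, 29.0 and 32.8 TPM in mutant 1 to 5. WT 5 was 10.9-fold below the next lowest library, WT 1, while mutant 1 and mutant 3 were above all WT mice. The means were 25.4 ± 13.3 TPM in WT mice and 34.8 ± 7.35 TPM in mutant mice (SD, n = 5 each), and the WT mean without WT 5 was 31.1 ± 4.21 TPM (SD, n = 4). The log2 fold change of 0.86 was the largest of the 7 genes and also had the widest interval (standard error 0.62, 95% interval -0.48 to 2.21, adjusted p = 0.780 in limma, exact permutation p = 0.198). Without WT 5 it was 0.15, so that 1 library set most of this value. In WT 5, 19 of these 8342 protein-coding genes were as far below the next lowest library as *Abhd6*, against 0 or 1 gene in each other library.

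The sequence before the upstream start of *Abhd6* is shown because this gene had the value that stood farthest from its group. It is chr14:8002638-8002887 on the plus strand (RefSeq, GRCm38.p6), with capitals marking its CCAAT.
Abhd6: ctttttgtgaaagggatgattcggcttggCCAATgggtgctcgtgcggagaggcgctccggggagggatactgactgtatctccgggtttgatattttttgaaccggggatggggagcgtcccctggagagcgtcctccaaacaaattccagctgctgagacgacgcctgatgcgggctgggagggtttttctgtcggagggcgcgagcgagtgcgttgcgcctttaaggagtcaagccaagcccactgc
Its GC content was 58.4%, with 18 CpG dinucleotides, 1 CCAAT and no GGGCGG. The overlapping window of its other start, from 8002716, had a GC content of 62.8%, 22 CpG dinucleotides, no CCAAT and 1 GGGCGG.

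Within a library, the ratio of *Mgll* to *Abhd6* was 2.18, 1.61, 1.92, 1.94 and 14.6 in WT 1 to 5 and 1.25, 2.02, 1.25, 1.91 and 1.49 in mutant 1 to 5. The log2 difference between the genotypes was -0.88 (exact permutation test, two-sided, p = 0.0714, and 0.286 adjusted over the 4 ratios), and it was -0.30 without WT 5. The ratio of *Mgll* to *Dagla*, of 2-AG breakdown to 2-AG synthesis, was 0.953 ± 0.248 in WT and 0.883 ± 0.141 in the mutant (SD, n = 5 each), a log2 difference of -0.074 (exact permutation p = 0.754, adjusted p = 0.754), and it was -0.27 without WT 5. *Abhd12*, another 2-AG hydrolase, had the highest level of the 3 hydrolase genes. It took 68.6% ± 7.91 of their summed TPM in WT mice and 64.2% ± 2.22 in the mutant, while *Mgll* took 21.6% ± 3.36 and 21.6% ± 1.58, and *Abhd6* 9.80% ± 4.92 and 14.1% ± 2.56 (SD, n = 5 each). The share of *Abhd6* was 1.14% in WT 5. A share of transcripts is not a share of enzyme activity.

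**Figure D2:**
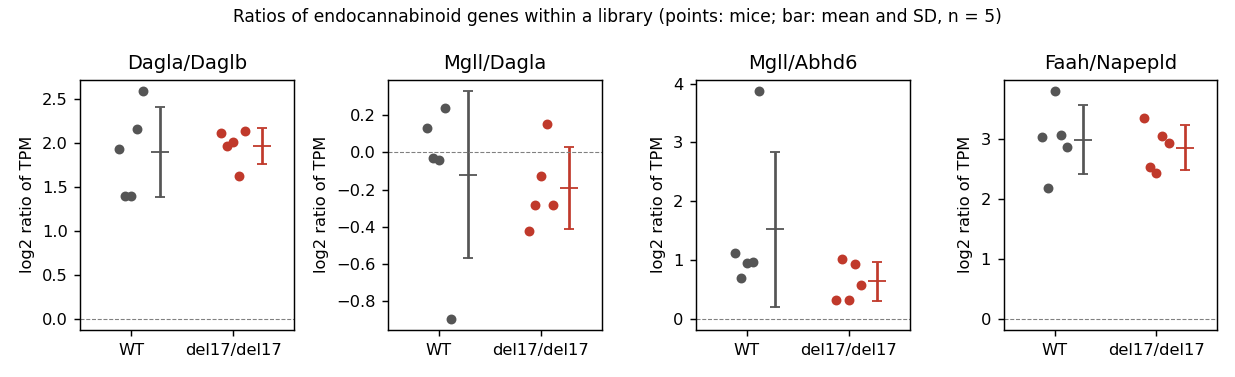
Log2 ratio of TPM between pairs of endocannabinoid genes within a library, with 1 point per mouse, mice 1 to 5 from left to right, and the mean and SD (n = 5) beside the points. The WT 5 point stands at a log2 ratio of 3.87 for *Mgll* to *Abhd6* and at -0.89 for *Mgll* to *Dagla*, and in all 4 panels the genotypes overlap.

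*Faah* encodes fatty acid amide hydrolase, the enzyme that degrades anandamide and that Purkinje cells contain in cell bodies and dendrites. It was measured at 30.8, 17.2, 26.0, 29.0 and 12.3 TPM in WT 1 to 5 and at 35.7, 25.2, 18.4, 32.6 and 27.0 TPM in mutant 1 to 5. Mutant 1 and mutant 4 were above all WT mice, WT 2 and WT 5 were below all mutant mice, and mutant 3 was the lowest mutant mouse. The means were 23.1 ± 7.96 TPM in WT mice and 27.8 ± 6.74 TPM in mutant mice (SD, n = 5 each), with a log2 fold change of 0.31 (standard error 0.27, 95% interval -0.28 to 0.90, adjusted p = 0.795 in limma, exact permutation p = 0.325). It was 0.11 without WT 5. *Faah* spans 115967145 to 116017926 on chromosome 4 (minus strand). The ratio of *Faah* to *Napepld*, of anandamide breakdown to anandamide synthesis, was 8.45 ± 3.41 in WT and 7.42 ± 1.94 in the mutant (SD, n = 5 each), a log2 difference of -0.13 (exact permutation p = 0.651, adjusted p = 0.754 over the 4 ratios), and it was -0.16 without WT 5.

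**Figure D3:**
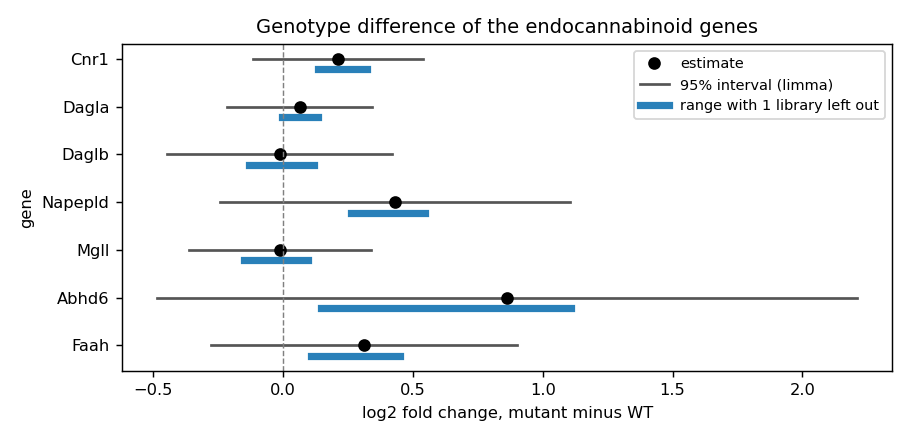
Log2 fold change (horizontal axis, mutant minus WT) of each endocannabinoid gene, with the point for the estimate, the thin line for its 95% interval from limma and the thick line for the range when each library in turn was left out. All 7 intervals include 0, and the thick line of *Abhd6* runs from 0.15 to 1.11.

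The order of the levels, from the mean TPM over the 10 libraries, was *Cnr1* at 77.0, *Dagla* at 59.7, *Mgll* at 53.9, *Abhd6* at 30.1, *Faah* at 25.4, *Daglb* at 15.8 and *Napepld* at 3.34. *Cnr1* was above *Dagla* in 8 of 10 libraries, in all 5 mutant and 3 WT mice. *Dagla* was above *Mgll* in 7 libraries, *Abhd6* above *Faah* in 7 and *Faah* above *Daglb* in 9, so these neighbours did not keep 1 order in every mouse. *Mgll* was above *Abhd6* in 10 of 10 libraries, although their ranges overlapped. *Daglb* was above *Napepld* in 10 of 10 libraries and their ranges were apart, with 11.2 TPM as the lowest value of *Daglb* and 4.37 TPM as the highest of *Napepld*.

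The spread between mice was larger in WT than in the mutant for 6 of the 7 genes, and for 4 of the 7 without WT 5, a setting added here after the values were seen. The coefficient of variation, the SD as a percentage of the mean, was 24.4% in WT and 5.65% in the mutant for *Cnr1*, 24.1% and 5.35% for *Mgll*, and 36.0% and 10.5% for *Napepld*. For *Daglb* it was 28.6% and 10.8%. For *Faah* it was 34.5% and 24.3%, and for *Abhd6* 52.5% and 21.1%, but without WT 5 the WT values of these genes were 23.4% and 13.5%, below those of the mutant. *Dagla* had 11.6% in WT and 14.8% in the mutant. For *Cnr1*, *Daglb*, *Mgll* and *Napepld* the WT values without WT 5 were 23.7%, 24.6%, 15.9% and 28.4%, above those of the mutant. WT 5 was the lowest WT library for 5 of the 7 genes, namely *Daglb*, *Napepld*, *Mgll*, *Abhd6* and *Faah*, and the next to lowest for *Cnr1*. It was the lowest of the 10 libraries for 3576 of the 8342 protein-coding genes counted above, against 152 to 971 genes for each other library. The difference in spread was not tested.

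**Figure D4:**
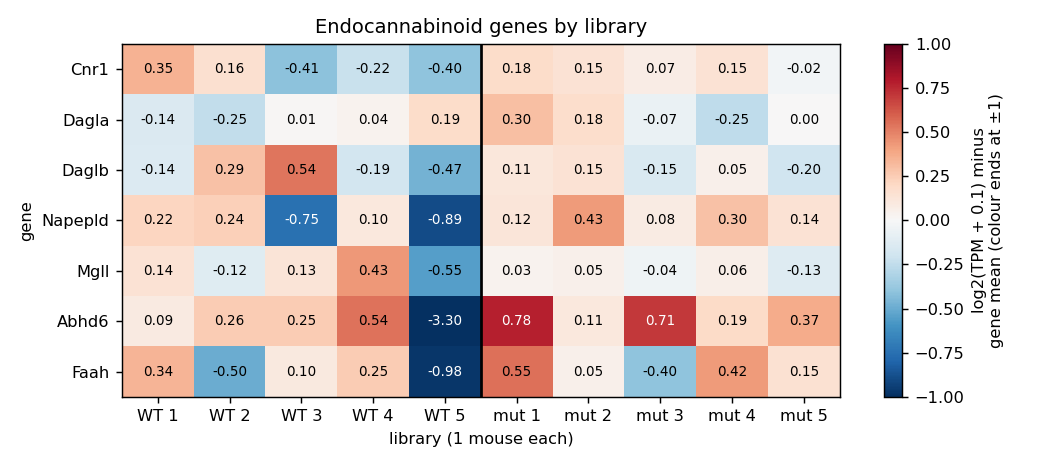
Level of each endocannabinoid gene (vertical axis) in each library (horizontal axis) as log2(TPM + 0.1) minus the mean of the gene over the 10 libraries, with the value printed in each cell and the colour ending at 1 in either direction. The column of WT 5 holds the lowest cell of *Daglb*, *Napepld*, *Mgll*, *Abhd6* and *Faah*, with -3.30 for *Abhd6*, and a cell above 0 for *Dagla*.

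Genes with the pattern most like each of the 7 were looked for among the 12799 protein-coding genes averaging 1 TPM or more, by the root mean square difference of log2 values over the 10 libraries after centring each gene. The nearest to *Cnr1* were *Kcmf1* (0.070), *Atp6v1c1* (0.070) and *Prkar1a* (0.075), against a root mean square of 0.246 for *Cnr1* around its own mean. The nearest gene was *Kcng4* for *Dagla* (0.077), *Zc3h18* for *Daglb* (0.14), *2310022B05Rik* for *Mgll* (0.080), *Zfp105* for *Napepld* (0.083) and *Spryd4* for *Faah* (0.18). For *Abhd6* it was *Nxn* (0.24), and *Abhd6* had a root mean square of 1.124 around its own mean, which the value in WT 5 dominates. These are descriptions over 10 libraries that share the scaling of TPM.

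Around these 7 genes, 29 other genes of the pathway were listed, and 25 of them passed the filter on low values. The log2 fold change was above 0 for 13 of the 25 and below 0 for 12, 0 passed the adjusted threshold (0% of all genes) and 1 had an unadjusted p under 0.05, in the direction of a higher level in the mutant (2.29% of all genes). The median of the 25 was 0.034, against 0.048 for all genes, and without WT 5 it was -0.029, against -0.037, with 10 genes above 0 and 15 below. *Cnr2*, which encodes the CB2 receptor of immune cells, *Gpr55* and *Trpv1* were under 0.5 TPM in all 10 libraries, and *Ptgs2*, whose enzyme oxidises 2-AG, reached 0.662 TPM at most.

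*Gprasp1*, which encodes a protein that binds CB1 and directs it to lysosomes after endocytosis, had the smallest p of the list. Its level was 47.9, 53.4, 19.7, 45.6 and 15.4 TPM in WT 1 to 5 and 58.4, 67.8, 53.7, 70.8 and 60.4 TPM in mutant 1 to 5. All mutant values were above all WT values, but the lowest mutant value exceeded the highest WT value only narrowly, and WT 3 and WT 5 were far below the other WT mice. The means were 36.4 ± 17.5 TPM in WT mice and 62.2 ± 6.98 TPM in mutant mice (SD, n = 5 each). The log2 fold change of 0.93 had a 95% interval of 0.23 to 1.64 (standard error 0.32), with an adjusted p of 0.779 in limma and an exact permutation p of 0.0079. Groups that do not overlap, with the mutant higher, were found for 0.419% of all genes, and *Gprasp1* did not pass the adjusted threshold. Without WT 5 its log2 fold change was 0.67, and its value without both WT 3 and WT 5 is not given here. The median of the 3 CB1 partner genes, *Gprasp1* among them, was 0.25, and -0.078 without both of these libraries.

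The next smallest p values were those of *Fabp3* and *Arrb2*. *Fabp3*, which encodes a fatty acid binding protein able to carry anandamide inside cells, had 177 ± 27.9 TPM in WT mice and 208 ± 12.3 TPM in mutant mice (SD, n = 5 each), a log2 fold change of 0.25 (95% interval -0.0044 to 0.50, adjusted p = 0.779 in limma, exact permutation p = 0.0476). It was 0.15 without WT 5. *Arrb2*, which encodes the beta-arrestin 2 that binds activated CB1, had 69.3 ± 6.14 TPM in WT mice and 59.9 ± 7.12 TPM in mutant mice (SD, n = 5 each), a log2 fold change of -0.21 (95% interval -0.46 to 0.029, adjusted p = 0.779 in limma, exact permutation p = 0.0556). The values of the genotypes overlapped for both genes.

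By role, the 7 genes that supply the precursor of 2-AG below mGluR1 had 4 log2 fold changes above 0 and 3 below (median 0.037), and *Homer3*, a scaffold of mGluR1 in Purkinje cells and the most abundant of them, had 411 ± 67.1 TPM in WT mice and 389 ± 31.0 TPM in mutant mice (log2 fold change -0.066). Of the other breakdown genes, both *Abhd12* and *Naaa* were below 0, with 171 ± 12.03 TPM in WT mice and 158 ± 12.9 TPM in mutant mice for *Abhd12* (log2 fold change -0.12). Of the 4 other genes of ethanolamide synthesis, 3 were above 0 and 1 below, and the most abundant, *Gde1*, a glycerophosphodiesterase gene, had 207 ± 26.7 TPM in WT mice and 203 ± 9.57 TPM in mutant mice. Of the 3 genes of CB1 partners, 2 were above 0, and *Cnrip1*, whose protein binds the tail of CB1, had 55.7 ± 6.89 TPM in WT mice and 51.7 ± 7.19 TPM in mutant mice (log2 fold change -0.11). Of the 6 genes of CB1 effectors, 2 were above 0 and 4 below (median -0.12), and *Gnao1*, the gene of the Go alpha subunit and the most abundant of them, had 254 ± 9.89 TPM in WT mice and 223 ± 59.0 TPM in mutant mice (log2 fold change -0.23). The 3 carrier genes had 2 values above 0 and 1 below. Among them, the log2 fold change of *Fabp5* was 0.52, and -0.022 without WT 5. That of *Fabp7* was -0.49, and -0.92 without WT 5. Without WT 5, 1 gene in each of 3 groups turned from above to below 0, so that 3 precursor supply genes, 1 effector gene and 1 carrier gene were above 0. No gene of these groups passed the adjusted threshold, and the plot of the pathway shows intervals that include 0 for all but *Gprasp1*.

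**Figure D5:**
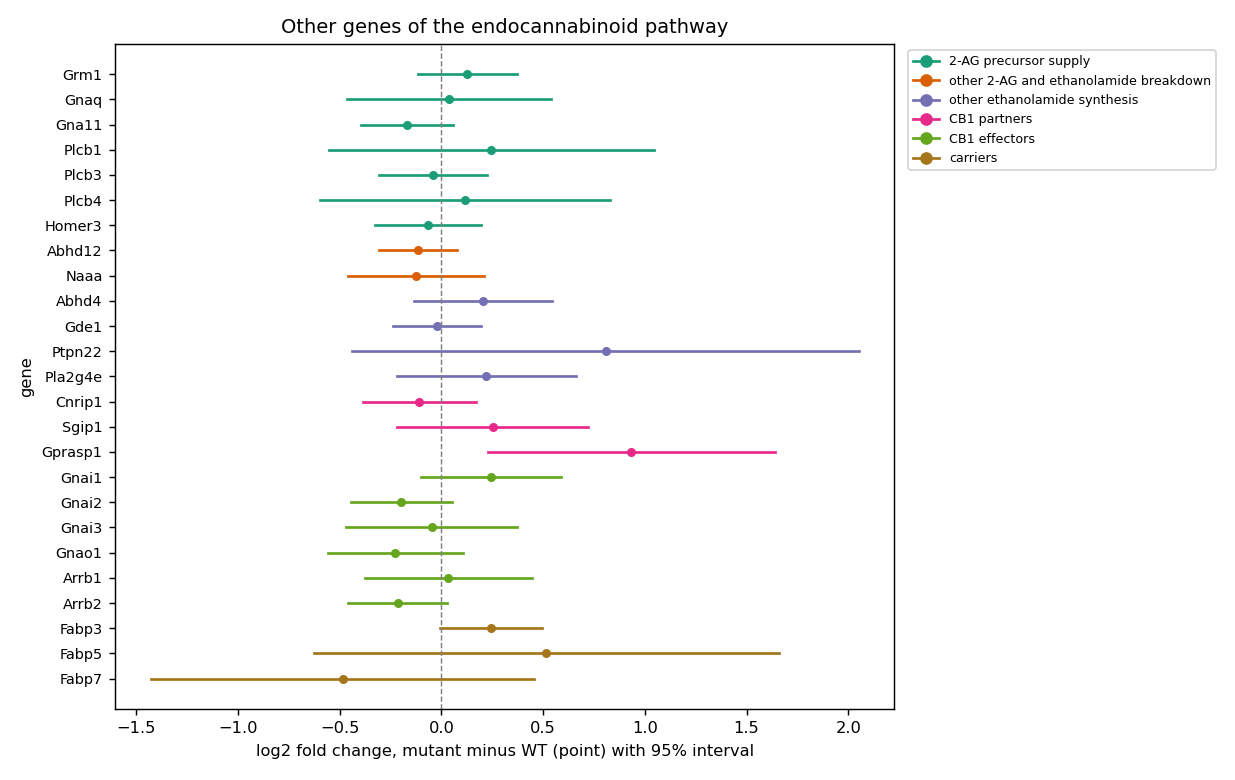
Log2 fold change (horizontal axis, mutant minus WT) of the 25 other pathway genes that were tested, with the point for the estimate and the line for its 95% interval from limma, coloured by role. The interval of *Gprasp1*, from 0.23 to 1.64, is the only one of the 25 that does not include 0.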

How the data were processed

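Directional RNA libraries from the cerebella of 10 mice, 5 per genotype, were sequenced on an Illumina NovaSeq. The deposited values are TPM per Ensembl gene, which the authors obtained by read trimming (Trimmomatic 0.36), alignment to GRCm38 (HISAT2 2.2.0) and transcript quantification (StringTie 1.3.6). The annotation release and the strand setting are not given in the sources used here, and the read counts behind the study's own comparison were not analysed here. TPM depends on the other transcripts of a library, so a few abundant transcripts can shift all other values.

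Genes with at least 0.5 TPM in at least 5 of 10 libraries were compared on log2(TPM + 0.1) in limma 3.58.1 under R 4.3.3, with a variance trend and no covariates, Benjamini-Hochberg adjustment over all 17168 genes tested and a threshold of 0.05. A fold change on this scale understates the change of low genes. Exact two-sided permutation tests were run over the 10 libraries (scipy 1.17.1). The limma step was tested on simulated data. Positions are from GENCODE M21, which lacked 191 of the 53447 identifiers, and promoter sequences are from RefSeq.

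The 7 genes and the lists were chosen with earlier results of these data known. The text names the 7 genes, *Dscam*, the 3 pathway genes with the smallest p, the most abundant pathway gene of each role, genes overlapping one of the 7 at a mean of 0.5 TPM or more, and the genes of most similar pattern. *Naaa*, *Fabp5*, *Fabp7*, *Cnr2*, *Gpr55*, *Trpv1*, *Ptgs2*, *Slc6a4*, *Hoxb5*, *Chat* and *Dbh* were named after their values were seen. A gene of the brainstem marker list is not reported here. Alternatives were other added values, filters and scalings, covariates, array weights, a replicate block and libraries left out. The spread and the counts by role without WT 5 were added after seeing the data. No source says that a replicate number marks a shared litter. The mice are separate animals. The p-values set the difference between the genotypes against the spread between libraries, 1 per mouse, which also holds counting error.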

Additional observations from a re-analysis of the deposited data

Results flagged for a closer look

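In 24 groups of 5 mice, made up of *Dscam*, the 7 endocannabinoid genes and the 4 ratios in each genotype, the gap between the most extreme mouse and the next was compared with Dixon's critical value. By chance about 1 group in 20 is set apart, which is 1.2 of 24, and 3 were. *Abhd6* was 2.48 TPM in WT 5, with the next lowest WT library at 27.0 TPM. The ratio of *Mgll* to *Abhd6* was 14.6 in WT 5, with the next at 2.18, and contains the same *Abhd6* value. The ratio of *Mgll* to *Dagla* was 0.538 in WT 5, with the next at 0.972. All 3 are of WT 5, the library with the fewest genes at 0.5 TPM or more and the least mitochondrial mRNA, and the part of these library differences in the 3 values was not tested.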

How the results depend on the processing

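Of 282 values under an alternative, 264 kept their direction and their side of the threshold, 17 turned direction and 1 count moved. No endocannabinoid gene passed the adjusted threshold in limma under any of the 23 alternatives. With mitochondrial mRNA as a covariate, *Cnr1* turned to -0.015 and *Abhd6* to -0.053, where the median of all genes was -0.11. Without WT 3 and WT 5 together, *Daglb* turned to 0.0044 and the log2 difference of the *Faah* to *Napepld* ratio to 0.095. *Daglb* also turned without WT 2 (0.058), WT 3 (0.12), mutant 3 (0.023) or mutant 5 (0.034), *Mgll* without WT 1 (0.024), WT 3 (0.020), WT 4 (0.096) or mutant 5 (0.020), and *Dagla* without mutant 1 (-0.0030). The ratio of *Dagla* to *Daglb* turned without WT 2 (-0.049) or WT 3 (-0.046), that of *Mgll* to *Dagla* without WT 4 (0.015) and that of *Faah* to *Napepld* without WT 3 (0.068). The cause was not tested. With each library left out in turn, the log2 fold change ranged from 0.13 to 0.32 for *Cnr1*, -0.0030 to 0.13 for *Dagla*, -0.13 to 0.12 for *Daglb*, -0.15 to 0.096 for *Mgll*, 0.11 to 0.45 for *Faah*, 0.26 to 0.55 for *Napepld*, 0.15 to 1.11 for *Abhd6* and -0.91 to -0.71 for *Dscam*. The lowest values of *Faah* and *Abhd6* were those without WT 5. The ratios ranged from -0.049 to 0.25 for *Dagla* to *Daglb*, -0.27 to 0.015 for *Mgll* to *Dagla*, -1.09 to -0.30 for *Mgll* to *Abhd6* and -0.34 to 0.068 for *Faah* to *Napepld*. The number of genes past the threshold was 0 to 1 over all genes and 0 in the pathway list. The 1 gene was *1500004A13Rik*, without mutant 4 (log2 fold change 4.48, adjusted p = 0.0029 in limma), named after its values were seen. With array weights the log2 fold change of *Abhd6* was 0.28 and that of *Mgll* -0.16. At an unadjusted p under 0.05, 953 genes became 1551 without WT 1 (1002 higher, 549 lower) and 1607 without WT 2, and the split of 394 higher and 559 lower became 223 and 866 with the mitochondrial covariate and 603 and 544 with median of ratios scaling.

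Same-numbered WT and mutant libraries deviated together with r of 0.0079 to 0.098 over 17168 genes, so the numbers were not taken to pair the mice. A replicate block left 0 genes past the threshold and 1094 at an unadjusted p under 0.05, against 953 without it, and the log2 fold change of *Cnr1* was 0.21 (adjusted p = 0.718 in limma). Only mouse 5 correlated best with its own number. TPM shows no depth, so the wide intervals, up to 4.63-fold for *Abhd6*, cannot be divided into counting error and differences between mice.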
